A study of Mus musculus with 24 samples.

Results

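The comparison described here is that of the C1qtnf6-KO maternal-fetal interface (MFI) at gd19.5 (gd, gestation day) with the C1qtnf6-KO MFI at gd16.5. Its members are 6 of the 24 bulk RNA-seq libraries of the series, 3 per stage, chosen by genotype and stage. The MFI is the region where the placenta meets the uterine lining, and a bulk library of it mixes RNA of maternal decidua and fetal placenta. Wild-type (WT) libraries of the same stages, again 3 per stage, were set beside them to find genes whose change departs without C1qtnf6. Per the study's methods all mice had the C57BL/6 background, and the knockout was a CRISPR-Cas9 deletion of C1qtnf6 exons carried by every cell of a homozygous animal, so a change in the decidua cannot be told apart from a response to the placenta. For these libraries the labels name no drug or other treatment in either genotype. The labels name no dam, litter, fetal sex or sequencing run. They do not say that libraries came from separate animals, so the p-values measure only the spread between these libraries.

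The mouse placenta faces the decidua with its junctional zone, a layer of spongiotrophoblast and glycogen trophoblast cells bordered by trophoblast giant cells. These cells secrete hormones of the prolactin family, pregnancy-specific glycoproteins (Psg) and placental cathepsins, while the labyrinth behind them exchanges nutrients and gas. Decidual natural killer (dNK) cells carry perforin and granzymes and decline as gestation proceeds. C1qtnf6 encodes CTRP6, a secreted C1q/TNF-related protein that is made by invasive trophoblast cells and restrains complement.

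*C1qtnf6* itself (chr15:78523346-78531416, minus strand of GRCm38) had 85.7, 73.6 and 92.3 CPM (counts scaled to a common library size) in the WT libraries at gd16.5 and 60.2, 64 and 65.3 CPM at gd19.5. The KO libraries had 0.609, 0.441 and 1.94 CPM at gd16.5 and 0.685, 0.79 and 0.0317 CPM at gd19.5. All 6 KO libraries lay far below all 6 WT libraries, as their labels state. The 12 libraries held 22204068 to 36719360 counts, so 3 counts stand for 0.0817 to 0.135 CPM before scaling. The tissue label was matched by the markers of both sides of the MFI. *Tpbpa*, the spongiotrophoblast marker, had 11620 CPM or more in every KO library, and *Prl8a2*, the decidual prolactin-related protein, had 1384 CPM or more. Of the lymphocyte lists, 3 of 8 NK cell receptor and identity genes, 2 of 8 T cell genes and 6 of 7 B cell genes passed the filter on low counts. Their summed CPM in the KO libraries ran from 54.2 to 86.9 for NK cell identity, from 0.749 to 0.998 for T cells and from 6.65 to 9.33 for B cells.

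Of the 6 KO libraries, gd16.5 replicates 1 and 2 stood apart. On the first principal component, which held 64.2% of the variance of the 500 most variable genes, they lay at -34.04 and -54.5, with WT gd16.5 replicate 1 at -33.52, and the other 9 libraries lay between 9.085 and 17.56. The same 3 libraries held transcripts of the visceral yolk sac, a fetal membrane that makes plasma proteins and lipid carriers before the liver takes over. The summed CPM of 14 yolk sac genes was 7937, 23340 and 228 in the KO libraries at gd16.5, against 282, 311 and 243 at gd19.5. In WT it was 8289, 257 and 233 at gd16.5, against 314, 288 and 499 at gd19.5. KO gd16.5 replicate 3 therefore lay among the gd19.5 libraries, and the KO groups overlapped. Summed CPM of 4 Y-linked genes also varied, with 182, 179 and 1.08 in KO at gd16.5, against 1.57, 118 and 37.2 at gd19.5, and 3 of these 6 libraries lay above 100 CPM. The counts of calls, over all genes and per gene list, were therefore also taken without the 3 libraries rich in yolk sac transcripts, and with the yolk sac level as a covariate, alternatives chosen after seeing the data. The first leaves 1 KO library at gd16.5, which is assumed to vary like the other groups.

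**Figure D1:**
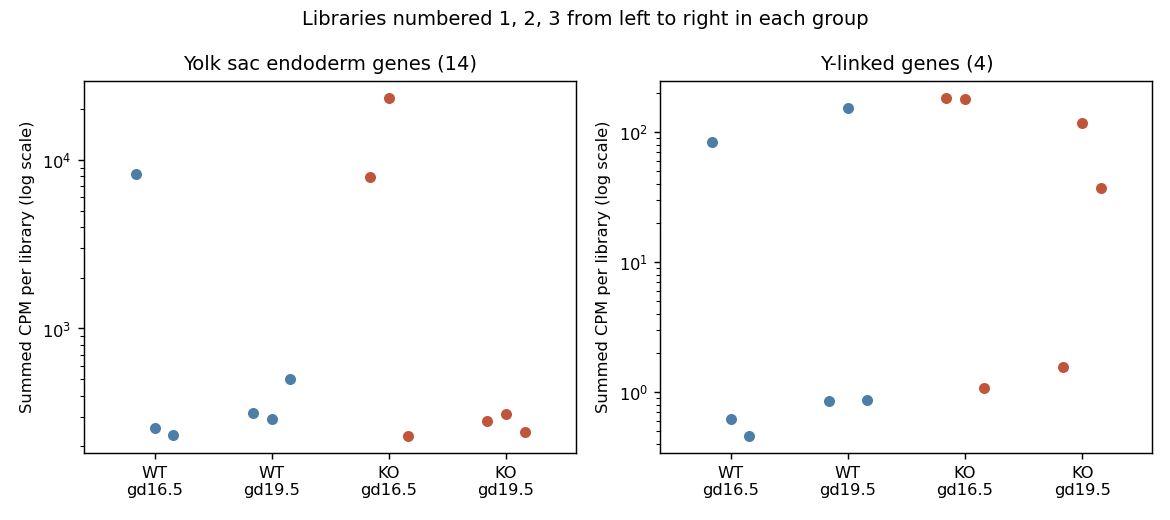
Summed CPM of 14 yolk sac genes and of 4 Y-linked genes, on log axes, for each of the 12 libraries by genotype and stage, 1 point per library. For the yolk sac genes, KO gd16.5 replicates 1 and 2 and WT gd16.5 replicate 1 lie at 7937 CPM or more and the other 9 libraries at 499.4 CPM or less.

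The fall of yolk sac transcripts was the largest change in size and rested on these libraries. *Afp*, the fetal plasma protein alpha-fetoprotein, had 4134, 14190 and 85.2 CPM at gd16.5 and 94.2, 100.1 and 57 CPM at gd19.5. *Alb*, which encodes albumin, had 141, 979 and 2.72 CPM at gd16.5 and 7.5, 2.69 and 0.571 CPM at gd19.5. *Fga*, a fibrinogen chain, had 87.7, 238 and 1.94 CPM at gd16.5 and 2.78, 2.81 and 1.46 CPM at gd19.5. In each of the 3 genes replicates 1 and 2 were high, replicate 3 was as low as gd19.5, and the stages overlapped. The log2 fold change (gd19.5 over gd16.5, ± standard error) of *Afp* was -6.20 ± 1.84 (adjusted p = 0.0523) and that of *Fga* was -5.55 ± 1.62 (adjusted p = 0.0494). The changes of *Afp* and *Fga* were -0.01 and 0.28 without the 3 libraries (adjusted p = 0.997 and 0.877). Of the 14 yolk sac genes, 5 passed the test defined below, all lower, and the median log2 fold change was -5.46 against -3.12 in WT, where none passed. Without the 3 libraries the KO median was 0.31, and with the covariate 0.063.

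Since these genes moved together across libraries, the 250 bases before the start in their RefSeq promoters (GRCm38.p6) were searched on both strands. The search was for the half-site of HNF1, a transcription factor of liver and yolk sac, spelled GTTAATNAT. It was found in 3 of the 13 yolk sac promoters that matched, or 23.1%, and in 211 of 27025 promoters of all genes, or 0.781%. The windows are shown because they hold the letters shared by 3 genes that were high in the same libraries. Each is 100 bases of the plus strand, 5′ to 3′, with the match in capitals, at chr5:90490569-90490668 for *Afp*, chr5:90460770-90460869 for *Alb* and chr3:83026053-83026152 for *Fga*, where the match is on the reverse strand. A match describes letters only.
Afp: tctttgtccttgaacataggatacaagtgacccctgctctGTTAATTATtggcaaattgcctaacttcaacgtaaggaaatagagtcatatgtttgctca
Alb: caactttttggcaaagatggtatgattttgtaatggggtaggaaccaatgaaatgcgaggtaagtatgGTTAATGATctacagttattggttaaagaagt
Fga: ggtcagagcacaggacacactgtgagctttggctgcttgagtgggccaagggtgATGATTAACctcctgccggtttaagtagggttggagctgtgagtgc

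A gene was called when its adjusted p (edgeR, Benjamini-Hochberg over 17959 genes) was under 0.05 and its log2 fold change was beyond 1 in size. Between gd16.5 and gd19.5, 478 genes were called in KO, which is 2.66% of the genes tested. Of these, 152 rose (0.846%) and 326 fell (1.82%). In WT, 214 rose (1.19%) and 146 fell (0.813%). By the adjusted p alone, without the fold limit, 4.67% of genes were higher and 5.29% lower in KO, and 3.14% higher and 4.25% lower in WT, and list counts given by the adjusted p alone include the called genes. The median of all genes was -0.028 in KO and -0.0089 in WT. The KO calls rested unevenly on the libraries. Of the 326 that fell, 124 had gd16.5 replicate 3 nearer to the gd19.5 mean than to the other gd16.5 libraries, and of the 82 that fell by more than 3 on the log2 scale, 78 did. Of the 152 that rose, 1 did. Without the 3 libraries rich in yolk sac transcripts 383 genes were called, 182 higher (83 of them also called with all libraries) and 201 lower (120 shared). Without KO gd19.5 replicate 2, 159 were called, 49 higher and 110 lower. A total of 70 rises and 116 falls were called with all libraries, without the 3 libraries and with the covariate alike, and 41 of each were called in the same direction in WT. Where a bulk library has less of a transcript, fewer cells of a type and less RNA per cell cannot be told apart.

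The 12 largest falls by the naming rule were those of *Spink1*, *Agt*, *Clec2h*, *Pklr*, *Serpina1a*, *Itih2*, *Apoa2*, *Anks4b*, *Maob*, *Bex2*, *Serpina10* and *Meltf*, with log2 fold changes from -6.95 to -3.91. Several encode secreted liver-type proteins, such as angiotensinogen (*Agt*), an antitrypsin (*Serpina1a*) and an apolipoprotein (*Apoa2*). *Apoa2* had 55.4, 101 and 1.73 CPM at gd16.5 and 1.61, 0.822 and 1.3 CPM at gd19.5. *Agt* had 17.1, 42.6 and 0.432 CPM at gd16.5 and 0.242, 0.253 and 0.317 CPM at gd19.5. In all 12, replicates 1 and 2 were high and replicate 3 lay close above the gd19.5 libraries, and in WT gd16.5 replicate 1 was again the high library. Without the 3 libraries only *Serpina10*, a protease inhibitor of coagulation, passed (-1.45, adjusted p = 0.0438), and *Pklr* and *Serpina1a* no longer passed the filter on low counts. Each of the 12 lost its call in 5 to 14 of the 21 to 24 alternatives in which it was tested. *Spink1*, a trypsin inhibitor, lost it without KO gd16.5 replicate 1 or 2, without any KO gd19.5 library and without WT gd19.5 replicate 1 or 2 (adjusted p from 0.051 to 0.137).

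Of 13 junctional zone genes, which include trophoblast hormones, 6 fell, 8 were lower by the adjusted p alone, and 8 had all gd19.5 libraries below all gd16.5 libraries, an arrangement found in 16.4% of all genes (the reverse in 14.8%). The median was -0.82 in KO and -0.19 in WT. Of the 13, 5 were called without the 3 libraries rich in yolk sac transcripts, and 5 with the covariate. *Tpbpa* had 29360, 26500 and 26630 CPM at gd16.5 and 14100, 11620 and 15400 CPM at gd19.5 in KO. Every gd19.5 library was below every gd16.5 library (log2 fold change -1.005 ± 0.18, adjusted p = 0.00713). In WT *Tpbpa* had 20220, 22290 and 15700 CPM at gd16.5 and 13260, 14590 and 18320 CPM at gd19.5, with overlapping stages (-0.33 ± 0.18, adjusted p = 0.258). The KO and WT changes differed by -0.67 ± 0.25, with an unadjusted p of 0.019 that did not pass adjustment (0.249). Its KO change was -0.94 without the 3 libraries (adjusted p = 0.0809). The summed CPM of the 13 genes was 71460, 67160 and 66340 in KO at gd16.5, against 42090, 31960 and 45930 at gd19.5, and 47480, 53380 and 37640 at gd16.5, against 37270, 42370 and 52210 at gd19.5, in WT. The KO libraries at gd16.5 were therefore the high group, above every library of the other 3 groups.

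The 24 prolactin family genes that passed the filter lie on mouse chromosome 13, 3 of them (*Prl2c2*, *Prl2c3* and *Prl2c5*) between 12790816 and 13191923 and 21 between 27094190 and 28151611, and the family was singled out after its values were seen. In KO 9 fell, none rose, 21 had a negative log2 fold change, and the median was -0.66. In WT 2 fell (*Prl3c1* and *Prl7a2*), 4 rose (*Prl3d1*, *Prl3d2*, *Prl5a1* and *Prl8a6*), and the median was 0.045. The summed CPM was 60570, 59050 and 59720 in KO at gd16.5, against 40440, 31980 and 45890 at gd19.5, so the stages did not overlap. In WT it was 44840, 48620 and 36220 at gd16.5, against 38070, 43260 and 53680 at gd19.5, so they did. The difference between the KO and WT changes was negative in all 24 members and had an unadjusted p under 0.05 in 20 of them (83.3%), against 2821 of all genes (15.7%). None passed adjustment by edgeR, and 7 did by DESeq2 (*Prl7c1*, *Prl7a1*, *Prl4a1*, *Prl3a1*, *Prl8a8*, *Prl2c5* and *Prl8a6*), where 0.773% of all genes did. The unadjusted edgeR p was under 0.05 in 13 of 24 without the 3 libraries (54.2% against 9.9% of all genes), and with the yolk sac covariate in 17 (70.8% against 10.9%). The members lie near each other and are not independent. *Prl2c2*, *Prl2c3* and *Prl2c5* are close copies whose reads the counting could split.

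*Prl3c1*, a prolactin-like gene of the decidua, had 50.8, 47.8 and 63.6 CPM at gd16.5 and 15.9, 14.1 and 18.1 CPM at gd19.5 in KO (-1.75 ± 0.13, adjusted p = 0.000278). Its stages were far apart, also in WT, with 45.4, 47.5 and 35.7 CPM at gd16.5 and 20.3, 21.5 and 20.9 CPM at gd19.5 (-1.04 ± 0.13, adjusted p = 0.00326). *Prl7c1* had 72.2, 72 and 57.8 CPM at gd16.5 and 23.7, 28.6 and 29.3 CPM at gd19.5 in KO (-1.31 ± 0.18, adjusted p = 0.0021). In WT *Prl7c1* had 43.7, 35.2 and 24.9 CPM at gd16.5 and 35.1, 44.4 and 37.4 CPM at gd19.5, which overlapped (0.17 ± 0.17, adjusted p = 0.583). Its KO and WT changes differed by -1.48 ± 0.25 (an unadjusted p of 5.74e-05, adjusted p = 0.136 by edgeR and 5.02e-05 by DESeq2). The other KO falls were those of *Prl4a1* (-1.49), *Prl7a2* (-1.48), *Prl7a1* (-1.37), *Prl8a8* (-1.28), *Prl2b1* (-1.28), *Prl8a1* (-1.24) and *Prl2c5* (-1.04). *Prl2b1* was just under the fold limit without KO gd19.5 replicate 2 (-0.998), as was *Prl2c5* without KO gd16.5 replicate 3 (-0.97), KO gd19.5 replicate 1 (-0.98) or KO gd19.5 replicate 2 (-0.97). *Prl8a6* did not pass in KO, with 7979, 7293 and 5684 CPM at gd16.5 and 7765, 5337 and 8328 CPM at gd19.5, while it rose in WT from 3479, 4462 and 2688 to 6064, 7434 and 10070 CPM (1.15 ± 0.24, adjusted p = 0.0168). *Prl3b1*, placental lactogen II, had 18490, 17430 and 16650 CPM at gd16.5 and 12130, 10260 and 14710 CPM at gd19.5 in KO, and this lower level did not pass (adjusted p = 0.0968). When all 24 libraries of the series shared one estimate of the spread, 3 of the 13 junctional zone genes were called, and *Prl7a2*, *Prl8a8* and *Prl2b1* lost their calls (adjusted p = 0.385, 0.38 and 0.175).

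**Figure D2:**
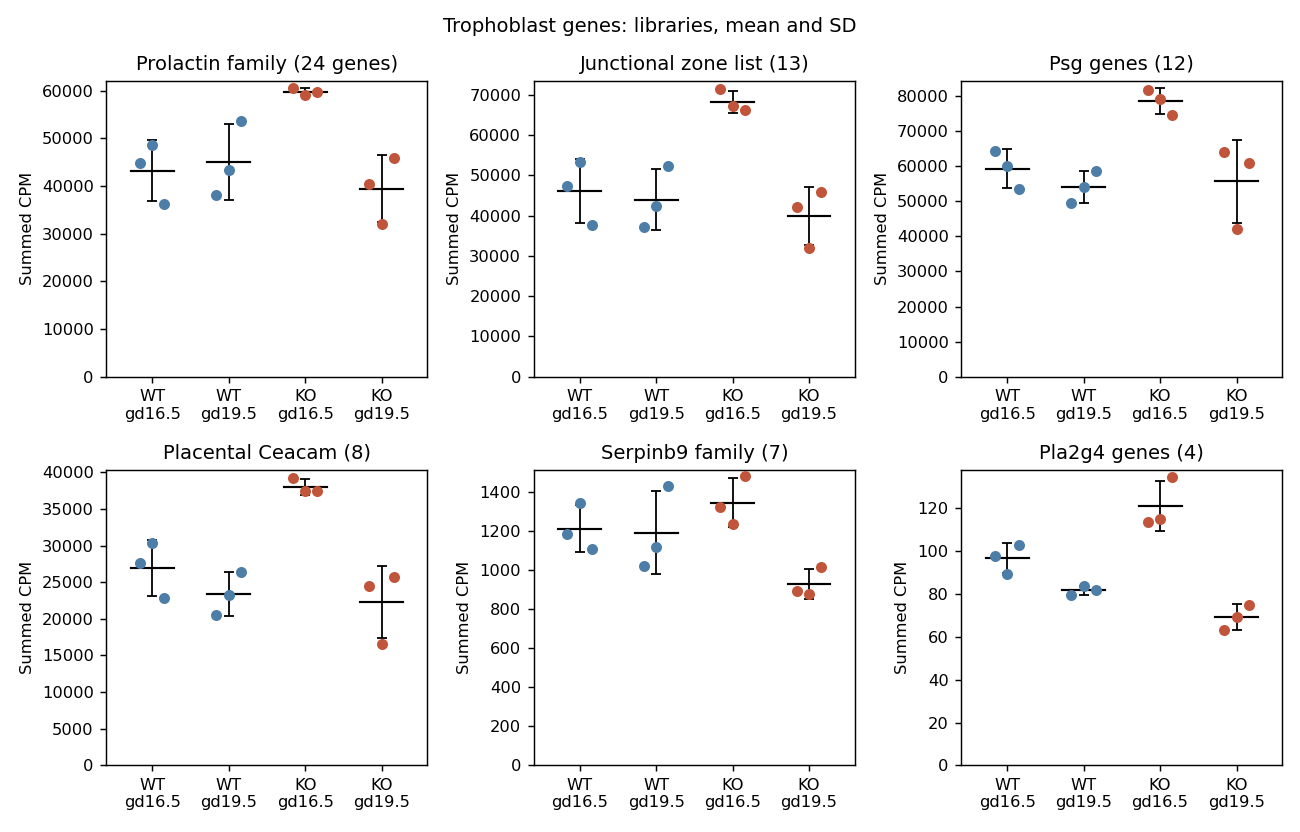
Summed CPM per library for the prolactin family (24 genes), junctional zone genes (13), Psg genes (12), placental Ceacam genes (8), *Serpinb9* genes (7) and cytosolic phospholipases A2 of the *Pla2g4* group (4), by genotype and stage, 1 point per library. In the prolactin panel the 3 KO points at gd16.5 lie between 59050 and 60570 CPM and those at gd19.5 between 31980 and 45890 CPM, while the WT points of both stages overlap.

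Other gene families of trophoblast cells behaved as follows. Of 12 Psg genes, 3 fell in KO (*Psg18*, *Psg25* and *Psg19*), 7 were lower by the adjusted p alone, and the median was -0.59. In WT 5 were lower by the adjusted p alone and 1 higher, with a median of -0.16. *Psg18* had 2898, 3049 and 3487 CPM at gd16.5 and 1424, 885 and 1429 CPM at gd19.5 in KO (-1.34 ± 0.16, adjusted p = 0.00142), against 2761, 2900 and 2402 CPM at gd16.5 and 1516, 1475 and 1524 CPM at gd19.5 in WT (-0.84 ± 0.16, adjusted p = 0.0132). The stages did not overlap in either genotype. *Psg19* sat at the fold limit (-1.01) and was under it without KO gd16.5 replicate 3, KO gd19.5 replicate 2, WT gd16.5 replicate 1 or any WT gd19.5 library (from -0.99 to -0.82). With all 24 libraries in the fit no Psg, Ceacam or cathepsin gene of these lists was called (adjusted p = 0.373 for *Psg18*, 0.475 for *Ceacam14*, 0.394 for *Cts3* and 0.467 for *Ctsm*). Leaving out the 3 libraries rich in yolk sac transcripts, 3 Psg, 3 Ceacam and 2 cathepsin genes were called. Among 8 placental Ceacam genes, *Ceacam14* fell (-1.21, adjusted p = 0.00361) and *Ceacam15* rose (1.03, adjusted p = 0.0161), and 5 were lower by the adjusted p alone. *Ceacam15* lost its call without KO gd16.5 replicate 2 (adjusted p = 0.0501), KO gd16.5 replicate 3 (log2 fold change 0.83) or KO gd19.5 replicate 2 (adjusted p = 0.0536). Of 9 placental cathepsins and cathepsin-like genes, *Cts3* (-1.30, adjusted p = 0.00402) and *Ctsm* (-1.23, adjusted p = 0.0021) fell, while *Ctsq* had 8462, 7784 and 6521 CPM at gd16.5 and 8511, 9009 and 11220 CPM at gd19.5 (adjusted p = 0.245).

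Trophoblast giant cell and glycogen cell genes gave 3 calls of 10 and 1 call of 8, all lower, and 3 and 2 without the 3 libraries rich in yolk sac transcripts. *Aldh1a3*, a retinaldehyde dehydrogenase and the only one called among the glycogen cell genes, had 155, 149 and 218 CPM at gd16.5 and 32.6, 39.1 and 43.5 CPM at gd19.5 in KO (-2.18 ± 0.20, adjusted p = 0.000324). It fell in WT as well, from 155, 130.4 and 147 to 60.1, 58 and 36.4 CPM (-1.49 ± 0.19, adjusted p = 0.00327), and the difference had a p of 0.0233 that did not pass adjustment (0.263). *Pcdh12*, a protocadherin of glycogen cells, was lower by the adjusted p alone (-0.77, adjusted p = 0.00932). *Ascl2*, the transcription factor that maintains spongiotrophoblast, fell (-1.49, adjusted p = 0.0173), and lost its call without KO gd19.5 replicate 1 or replicate 2 (adjusted p = 0.054 and 0.075). None of 9 syncytiotrophoblast genes, which line the labyrinth, was called, with a median of -0.11 against -0.36 in WT, where 2 fell. With the yolk sac covariate *Syna* (-1.43, adjusted p = 0.00736) and *Gcm1* (-2.10, adjusted p = 0.0323) were called lower in KO. Without the 3 libraries, which leaves only replicate 3 for KO at gd16.5, their changes were -1.67 and -2.20. Without KO gd16.5 replicate 3 the change of *Syna* was -0.36 (adjusted p = 0.414).

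Further falls that were called with all libraries, without the 3 libraries and with the covariate were named after their values were seen. *Serpinb9d* belongs to the *Serpinb9* family clustered on chromosome 13 (7 genes between 33003250 and 33496004). It had 95.3, 95.3 and 101 CPM at gd16.5 and 37.9, 46.7 and 48 CPM at gd19.5 in KO (-1.14 ± 0.10, adjusted p = 0.000324). In WT it had 76.7, 80.1 and 64.9 CPM at gd16.5 and 57, 64.5 and 68.5 CPM at gd19.5, which overlapped (-0.22 ± 0.10, adjusted p = 0.206). All 7 *Serpinb9* genes had every gd19.5 KO library below every gd16.5 KO library, as did 16.4% of all genes. Of the 7, 3 were lower by the adjusted p alone and 1 was called. Their summed CPM was 1324, 1236 and 1485 in KO at gd16.5, against 894, 878 and 1020 at gd19.5, and 1189, 1346 and 1109 at gd16.5, against 1025, 1122 and 1434 at gd19.5, in WT. Without scaling factors for library composition the fall of *Serpinb9d* was 0.97 on the log2 scale, under the fold limit. These genes are close in sequence, and reads shared between them limit each value.

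The neighbouring genes *Pla2g4e*, *Pla2g4d* and *Pla2g4f* on the minus strand of chromosome 2 (chr2:120166412-120245335, chr2:120265595-120289197 and chr2:120299957-120314165), which encode cytosolic phospholipases A2, fell together. *Pla2g4d* had 29.4, 30.5 and 39.5 CPM at gd16.5 and 7.66, 10.4 and 9.39 CPM at gd19.5 in KO (-1.85 ± 0.16, adjusted p = 0.000278). The log2 fold changes of *Pla2g4e* and *Pla2g4f* were -1.63 and -1.79 (adjusted p = 0.000961 and 0.000338). In WT the 3 genes were lower at gd19.5 by the adjusted p alone (-0.91, -0.77 and -0.96), and the differences from KO had unadjusted p values of 0.000896, 0.00521 and 0.00381, none passing adjustment by edgeR, while *Pla2g4d* did by DESeq2 (adjusted p = 0.0261). *Pla2g4a*, the widely expressed member on chromosome 1, was higher in KO by the adjusted p alone (0.43, adjusted p = 0.0423). *Clec1b*, the podoplanin receptor CLEC-2, had 29.3, 31.2 and 26.9 CPM at gd16.5 and a mean of 8.63 ± 1.7 CPM (SD, n = 3) at gd19.5 in KO, each below every gd16.5 library (-1.75 ± 0.20, adjusted p = 0.00107). In WT its stages overlapped, at 21.5, 16.6 and 12.8 CPM at gd16.5 and 16.1, 17.4 and 11.3 CPM at gd19.5 (-0.19 ± 0.20, adjusted p = 0.589), and the difference of -1.56 ± 0.28 had an unadjusted p of 0.000115 (adjusted p = 0.136). *Plac8* fell from 283, 292 and 369 to 129, 94.7 and 149.9 CPM in KO (-1.34 ± 0.16, adjusted p = 0.00108; WT -0.55 ± 0.15, adjusted p = 0.0496). The transcription factor gene *Cdx2* fell in KO (-1.36, adjusted p = 0.00256), as did the interstitial collagenase gene *Mmp1a* (-2.51, adjusted p = 0.00142), which also fell in WT (-1.66, adjusted p = 0.00816). The estrogen-responsive gene *Greb1* fell in KO (-2.25, adjusted p = 0.00378), against -0.74 in WT (adjusted p = 0.188).

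Among the rises to more than 1 CPM at gd19.5, the largest was that of *Ehf*, an ETS-family transcription factor of epithelia. It had 0.328, 0.411 and 0.388 CPM at gd16.5 and 2.54, 4.83 and 3.87 CPM at gd19.5 in KO (3.29 ± 0.29, adjusted p = 0.000324), with no overlap. It rose in WT too, from 0.233, 0.413 and 0.228 to 2.15, 1.68 and 2.35 CPM (2.80 ± 0.32, adjusted p = 0.00255). Of the other 3 uterine epithelial genes tested, *Wfdc2*, a secreted protease inhibitor, fell in KO from 4.92, 2.08 and 8.98 to 2.02, 1.52 and 1.62 CPM (-1.62 ± 0.42, adjusted p = 0.0345). The call of *Wfdc2* was lost without WT gd19.5 replicate 2 (adjusted p = 0.0514) and without any of the 6 KO libraries other than gd16.5 replicate 2 (adjusted p from 0.0569 to 0.127), and with all 24 libraries in the fit (0.0563), while its WT fall was larger (-3.20, adjusted p = 0.00363). At lower levels, 3 genes best known from the early embryo and germ line, *Dppa3*, *Dppa1* and *Crxos*, rose in KO and were named after their values were seen. *Dppa3* had 0.0468, 0.0587 and 0.0432 CPM at gd16.5 and 0.161, 0.79 and 0.666 CPM at gd19.5 in KO (adjusted p = 0.0246), and 0, 0 and 0.0456 CPM against 0.111, 0.07 and 0.399 CPM in WT (adjusted p = 0.122). *Dppa1* reached 0.524, 0.885 and 0.762 CPM (adjusted p = 0.0139) and *Crxos* 0.242, 0.98 and 1.24 CPM (adjusted p = 0.015). Each had no more than 4 counts in any KO library at gd16.5, so no fold is given. None of the 3 passed without the 3 libraries rich in yolk sac transcripts (adjusted p from 0.124 to 0.217) or with the covariate (0.0602 to 0.113), and leaving out single libraries was not run for them.

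The 12 largest rises by the naming rule ran from 2.81 to 1.64 on the log2 scale. The rule admitted only genes whose KO stages did not overlap. *Tmem178*, a transmembrane protein gene, had 1.97, 0.881 and 0.691 CPM at gd16.5 and 5.44, 10.3 and 8.54 CPM at gd19.5 in KO (2.81 ± 0.34, adjusted p = 0.00129). In WT it had 1.05, 1.57 and 1.23 CPM at gd16.5 and 2.41, 2.9 and 3.35 CPM at gd19.5 (1.17 ± 0.35, adjusted p = 0.0598), and the difference of 1.65 ± 0.49 had an unadjusted p of 0.00525 (adjusted p = 0.193). The KO libraries at gd19.5 lay above every WT library. *C1s1*, the complement protease C1s, had 14.9, 13.5 and 14.8 CPM at gd16.5 and 43.4, 89.3 and 63.2 CPM at gd19.5 (2.18 ± 0.25, adjusted p = 0.00105). Its WT change was 1.34 ± 0.25 (adjusted p = 0.0106), from 11.2, 12 and 14.1 to 25.6, 26.1 and 42.7 CPM, so the rise was seen in both genotypes (difference 0.84 ± 0.35, an unadjusted p of 0.0312, adjusted p = 0.28). Its partner *C1ra* was higher in KO by the adjusted p alone (0.57, adjusted p = 0.0441).

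*Doxl1*, a diamine oxidase-like gene, had 131, 81.2 and 50.1 CPM at gd16.5 and 471, 538 and 392 CPM at gd19.5 in KO (2.42 ± 0.31, adjusted p = 0.00148), and it also rose in WT (2.69 ± 0.31, adjusted p = 0.00255). *Dio2*, the deiodinase that activates thyroid hormone, had 6.56, 5.9 and 2.5 CPM at gd16.5 and 13.6, 29 and 15.8 CPM at gd19.5 (1.96 ± 0.36, adjusted p = 0.00795). *Lrrn4*, a gene of mesothelium, had 21.7, 12.2 and 9.54 CPM at gd16.5 and 56.6, 52.9 and 46.8 CPM at gd19.5 (1.85 ± 0.25, adjusted p = 0.00207). In these 3 genes KO gd16.5 replicate 3 was the lowest library. Each was called in WT as well. Of the 8 mesothelial genes tested, *Lrrn4* was the only 1 called in KO. The KO change was positive in 4 of the 8 and negative in 4, with a median of 0.016. The remaining rises were those of *Aldh1a2*, which makes retinoic acid (1.79), the chromatin protein gene *Hmga2* (1.71), the lysyl oxidase gene *Loxl4* (1.71), *Igfbp6*, which binds insulin-like growth factors (1.64), the zinc transporter gene *Slc30a3* (1.66), the ErbB ligand gene *Nrg1* (1.87) and *Nppb*, the B-type natriuretic peptide (1.65). *Aldh1a2* and *Nrg1* were not called in WT (adjusted p = 0.0842 and 0.0615), and neither difference had a p under 0.05. *Nrg1* lost its call without KO gd19.5 replicate 2 (adjusted p = 0.0724) and without the 3 libraries rich in yolk sac transcripts (0.11), and *Nppb* without KO gd16.5 replicate 2 or 3 or KO gd19.5 replicate 2 or 3 (adjusted p from 0.0719 to 0.152) and without WT gd19.5 replicate 2 (0.0581). *Slc30a3* lost its call with all 24 libraries in the fit (adjusted p = 0.104). *Nppb* started higher in KO, at 18.5, 11.3 and 4.36 CPM against 2.8, 3.64 and 2.37 CPM in WT, and reached 22.1, 48.8 and 36 CPM in KO and 16, 32.7 and 42.6 CPM in WT. *Corin*, the protease that activates natriuretic peptide and was named after its values were seen, had 24.8, 21 and 19.7 CPM at gd16.5 and 48.2, 59.6 and 46 CPM at gd19.5 in KO (1.23 ± 0.14, adjusted p = 0.00108). In WT *Corin* did not pass (0.43 ± 0.14, adjusted p = 0.0847), and the difference of 0.80 ± 0.20 had an unadjusted p of 0.00173 (adjusted p = 0.184).

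**Figure D3:**
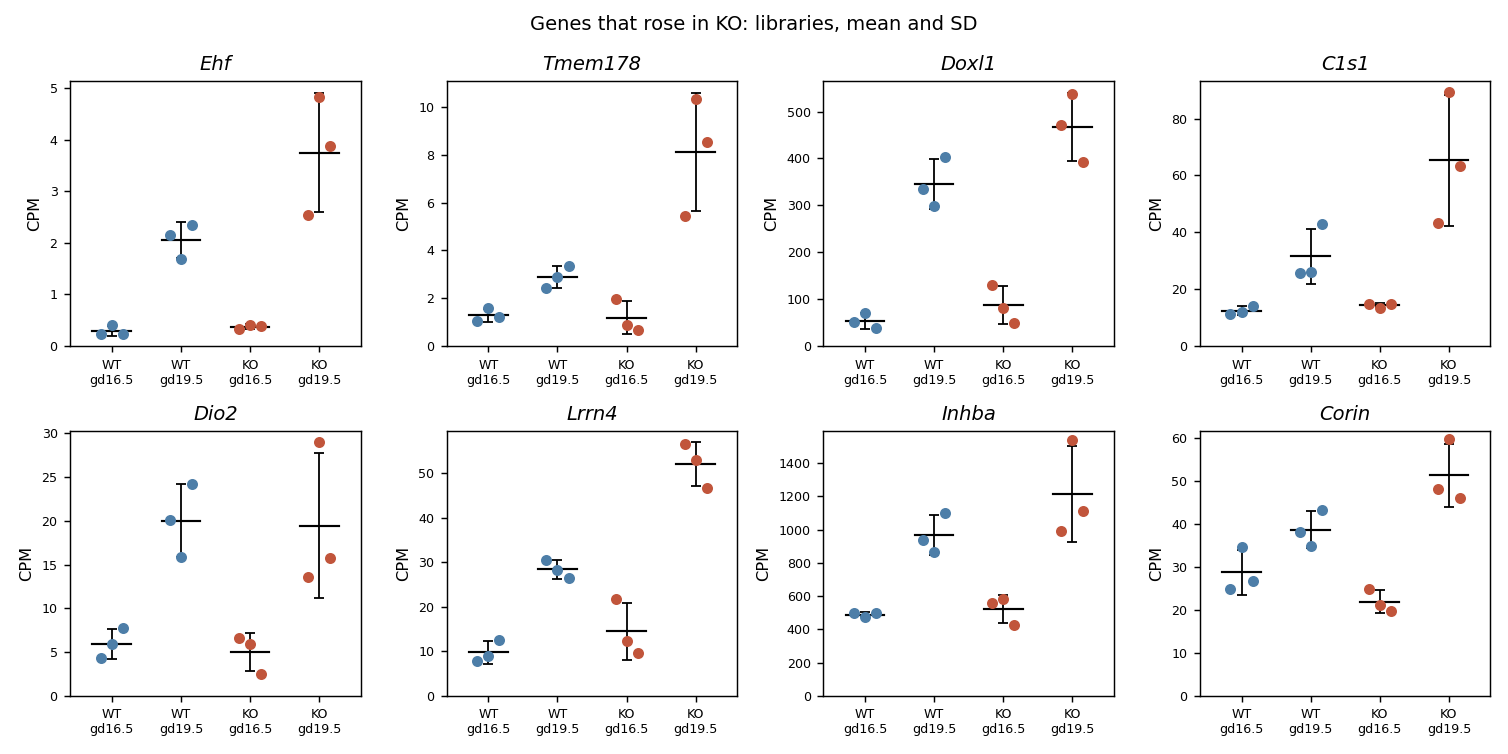
CPM per library for *Ehf*, *Tmem178*, *Doxl1*, *C1s1*, *Dio2*, *Lrrn4*, *Inhba* and *Corin*, by genotype and stage, 1 point per library. In all 8 panels the 3 KO points at gd19.5 lie above the 3 KO points at gd16.5, and for *Tmem178* they also lie above all WT points.

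Genes of labor had a median of 0.47 in KO and 0.083 in WT. Of these 11 genes, *Ptgs2*, the inducible prostaglandin synthase, rose from 46.2, 45.1 and 24.5 to 68.5, 121 and 86 CPM in KO (1.25 ± 0.26, adjusted p = 0.0147), and 4 were higher by the adjusted p alone. *Ptgs2* lost its call without KO gd19.5 replicate 2 (adjusted p = 0.0665), the highest library. *Esr1*, the estrogen receptor, had 18.3, 18.5 and 16.1 CPM at gd16.5 and 29.9, 39 and 34.3 CPM at gd19.5 (log2 fold change 0.96 ± 0.19, adjusted p = 0.0119), just under the fold limit. *Inhba*, the activin A subunit, rose from 560.0, 584 and 423 to 993, 1540 and 1115 CPM in KO (1.22 ± 0.16, adjusted p = 0.0021), and the WT change lay just under the fold limit (0.99 ± 0.16, adjusted p = 0.0064). *Inhbb*, the activin B subunit, was lower by the adjusted p alone (-0.48, adjusted p = 0.0173). Among 14 matrix proteases and their inhibitors, *Mmp10* rose (1.57, adjusted p = 0.0163), 5 were higher by the adjusted p alone, and the median was 0.61 against 0.34 in WT. *Mmp10* lost its call without KO gd19.5 replicate 2 (adjusted p = 0.0709). *Adamts5*, an aggrecanase, had 55.6, 62.4 and 53.5 CPM at gd16.5 and 92.6, 140.5 and 105 CPM at gd19.5 (0.98 ± 0.19, adjusted p = 0.00951). Decidual genes had 1 fall (*Prl3c1*), 4 of 12 higher by the adjusted p alone (*Wnt4*, *Hoxa11*, *Pgr* and *Igfbp3*) and a median of 0.58 against 0.039 in WT. *Pgr*, the progesterone receptor, had 25.1, 28.6 and 22.6 CPM at gd16.5 and 44.4, 56.9 and 42 CPM at gd19.5 (0.91 ± 0.21, adjusted p = 0.0195), with no overlap. Among 11 stromal genes none was called, and the small leucine-rich proteoglycan genes *Dcn* and *Lum* were higher by the adjusted p alone (0.73 and 0.76). Without the 3 libraries rich in yolk sac transcripts these changes were 1.01 and 1.18.

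The medians of smooth muscle and endothelial genes were positive in KO and negative in WT. All 11 smooth muscle genes had a positive log2 fold change in KO, 2 rose (*Cnn1* and *Actg2*), 4 passed by the adjusted p alone, and the median was 0.51 against -0.20 in WT, where none passed. *Cnn1*, the thin-filament protein calponin, had 2.01, 1.56 and 1.42 CPM at gd16.5 and 4.63, 5.37 and 5.52 CPM at gd19.5 in KO (1.64 ± 0.33, adjusted p = 0.0132), against 4.2, 1.65 and 1.37 CPM at gd16.5 and 2.45, 3.29 and 2.79 CPM at gd19.5 in WT. The KO stages were well apart, and the WT stages overlapped because WT gd16.5 replicate 1 was the highest WT library. *Acta2*, smooth muscle actin, had 72.4, 68.3 and 69.4 CPM at gd16.5 and 95.3, 151 and 108 CPM at gd19.5 in KO (0.75 ± 0.15, adjusted p = 0.0107). In WT *Acta2* had 99.4, 94.5 and 84.4 CPM at gd16.5 and 92.3, 86.8 and 71.8 CPM at gd19.5 (-0.15 ± 0.14, adjusted p = 0.556), and the difference of 0.90 ± 0.21 had an unadjusted p of 0.000835 (adjusted p = 0.166). The smooth muscle myosin gene *Myh11* differed between genotypes in the same direction (1.08 ± 0.25, an unadjusted p of 0.00102, adjusted p = 0.172). KO gd19.5 replicate 2 was the highest library for *Acta2* and *Myh11*, and without it their KO changes were 0.54 and 0.63. *Actg2* lost its call when any KO library (adjusted p from 0.0633 to 0.144) or any WT gd19.5 library (0.0508 to 0.0547) was left out. The binding motif of serum response factor, the CArG box, was found in none of the 7 matched smooth muscle promoters and in 1.4% of all promoters.

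None of 10 endothelial genes was called in KO, 4 were higher by the adjusted p alone (*Eng*, *Kdr*, *Plvap* and *Pecam1*), and the median was 0.35 against -0.23 in WT. *Eng*, the TGF-beta co-receptor endoglin, had 56.9, 53.2 and 61 CPM at gd16.5 and 89.8, 124 and 88.3 CPM at gd19.5 in KO (0.82 ± 0.15, adjusted p = 0.00888), against 59.6, 67.4 and 87.9 CPM at gd16.5 and 88, 72.7 and 78.8 CPM at gd19.5 in WT. The KO stages did not overlap, and the WT stages did. The difference between genotypes had an unadjusted p under 0.05 in 15.7% of all genes. It did so in 8 of the 10 endothelial and 6 of the 11 smooth muscle genes. None of these passed adjustment by edgeR, while *Acta2*, *Myh11* and the angiopoietin receptor gene *Tek* did by DESeq2 (adjusted p = 0.0109, 0.0129 and 0.0338), as did 0.773% of all genes. Without the 3 libraries rich in yolk sac transcripts no endothelial gene passed the adjusted p in KO, and the median was 0.18. The same setting left the 2 smooth muscle calls and a median of 0.63. A pair of angiogenic receptors was lower in both genotypes. *Aplnr*, the apelin receptor, fell in KO from 6.84, 5.55 and 12.4 to 2.42, 3.89 and 2.79 CPM (-1.43 ± 0.27, adjusted p = 0.00888) and in WT from 12.6, 10.9 and 14 to 2.08, 2 and 1.91 CPM (-2.64 ± 0.28, adjusted p = 0.00255). *Flt1*, the VEGF receptor that trophoblast cells shed, was lower by the adjusted p alone in KO (-0.76, adjusted p = 0.0182) and in WT (-0.92, adjusted p = 0.01).

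**Figure D4:**
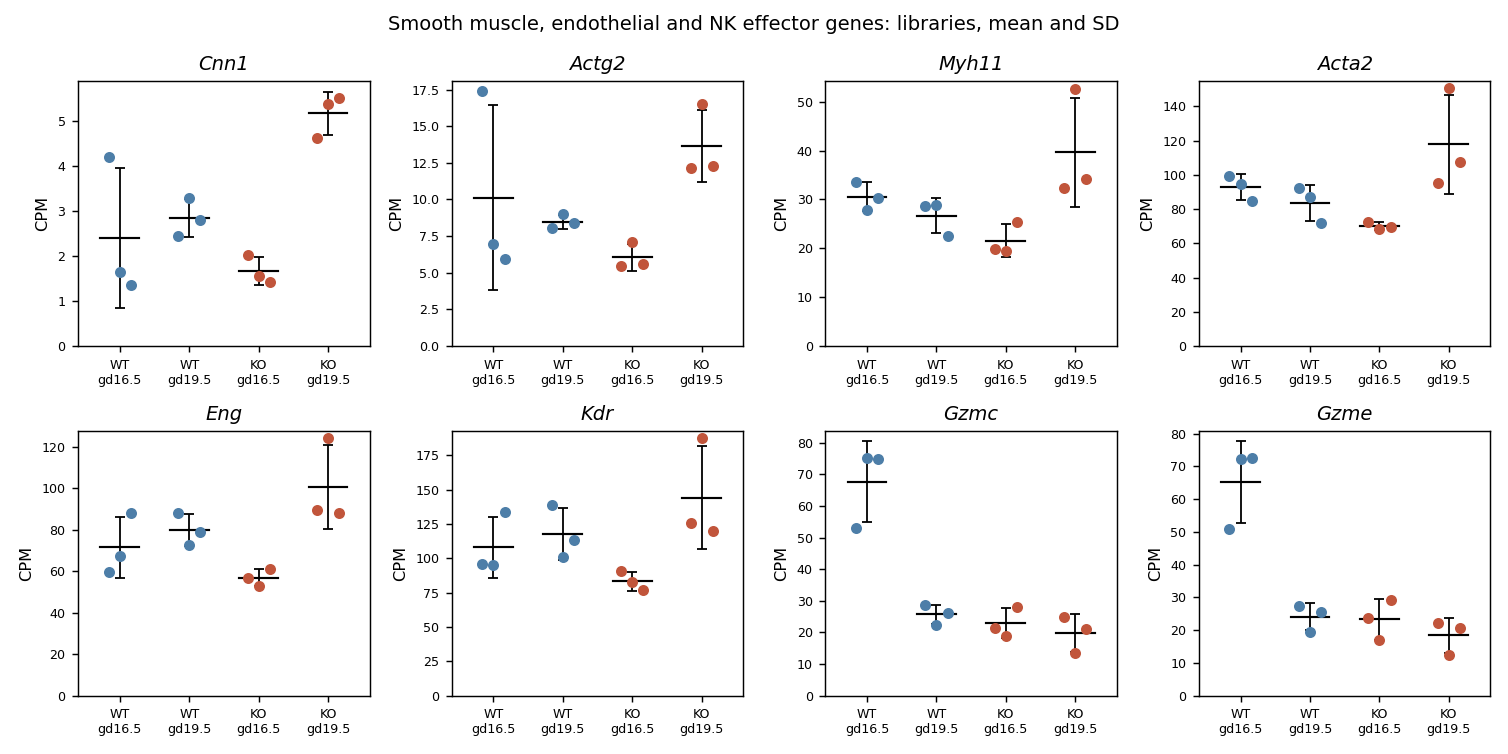
CPM per library for the smooth muscle genes *Cnn1*, *Actg2*, *Myh11* and *Acta2*, the endothelial genes *Eng* and *Kdr* and the granzyme genes *Gzmc* and *Gzme*, by genotype and stage, 1 point per library. For the first 6 genes the KO points at gd19.5 lie above the KO points at gd16.5, while for both granzymes the KO stages overlap and the WT points at gd16.5 stand above all other points.

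The dNK cell effector genes, perforin and the granzymes among them, fell in WT and did not pass in KO. The study chose this list of 8 genes on these samples, as lower in KO than in WT at gd16.5. Neither its WT decline nor its difference between genotypes is therefore independent evidence. In KO 0 of 8 was called by edgeR, 0 of 8 had an unadjusted p under 0.05 (26.6% of all genes did), the median was -0.17, and the stages overlapped in every gene. In WT all 8 fell, with a median of -1.41. The summed CPM was 207, 171 and 238 in KO at gd16.5, against 220.1, 126 and 210.3 at gd19.5. In WT it was 483, 704 and 736 at gd16.5, against 283, 204 and 235 at gd19.5. All KO libraries of both stages thus lay below all WT libraries of gd16.5, and KO gd16.5 replicates 1 and 3 lay within the range of WT gd19.5 and replicate 2 below it. *Prf1*, perforin, had 7.21, 5.58 and 9.93 CPM at gd16.5 and 8.79, 4.61 and 7.04 CPM at gd19.5 in KO (-0.15 ± 0.28, adjusted p = 0.771), against 19, 27.4 and 34.5 CPM at gd16.5 and 11.9, 8.78 and 9.13 CPM at gd19.5 in WT (-1.44 ± 0.27, adjusted p = 0.0106). *Gzmg*, a granzyme, had the largest difference between genotypes of the 8 (1.35 ± 0.30, an unadjusted p of 0.000798, adjusted p = 0.163). The difference had an unadjusted p under 0.05 in all 8 (and in 15.7% of all genes). It passed adjustment in none by edgeR and in 5 by DESeq2 (*Gzmg*, *Gzmd*, *Gzmf*, *Gzmc* and *Gzmb*, adjusted p from 0.00548 to 0.0483), where 0.773% of all genes did. *Il2rb*, a receptor subunit that NK cells need, was lower by the adjusted p alone in KO (-0.45, adjusted p = 0.0145) and in WT (-0.37, adjusted p = 0.0345). *Cxcl1*, a neutrophil chemokine, fell in KO from 2.15, 2.7 and 1.51 to 0.524, 0.474 and 0.73 CPM (-1.88 ± 0.30, adjusted p = 0.00468). It did not pass without the 3 libraries (-1.36, adjusted p = 0.0996). No macrophage, B cell, T cell, neutrophil, interferon or MHC gene was called in KO.

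Of 16 folding genes of the endoplasmic reticulum (ER), mostly chaperones, none was called, 10 were lower by the adjusted p alone in KO and 7 in WT, and the medians were -0.43 and -0.40. *Hspa5*, the chaperone BiP, had 3933, 4816 and 4022 CPM at gd16.5 and 3005, 2142 and 2821 CPM at gd19.5 in KO (-0.68 ± 0.14, adjusted p = 0.0156). The stages did not overlap. In 14 of the 16 genes all gd19.5 KO libraries lay below all gd16.5 KO libraries, as in 16.4% of all genes. No gene of the list had a difference between genotypes with an unadjusted p under 0.05. With the 3 libraries left out, 3 of the 16 passed by the adjusted p, and the median was -0.31. Cholesterol synthesis and uptake genes had a median of -0.65 in KO and -0.21 in WT, and 5 of 16 were lower by the adjusted p alone in KO. *Lss*, lanosterol synthase, had 15.8, 33.8 and 15.3 CPM at gd16.5 and 11.9, 11.9 and 11.3 CPM at gd19.5 (-0.90 ± 0.24, adjusted p = 0.0356), and KO gd16.5 replicate 2, the library richest in yolk sac transcripts, was the highest. The list median was -0.12 and none passed without the 3 libraries. *Igfbp1* (-3.02, adjusted p = 0.0346) and the complement inhibitor gene *Cfi* (-5.48, adjusted p = 0.0466) had the same highest library and fell. Without it neither passed (adjusted p = 0.168 and 0.153), nor without any KO gd19.5 library (adjusted p from 0.0701 to 0.147) or WT gd19.5 replicate 1 or 2 (0.0501 to 0.0662), and *Cfi* also failed without KO gd16.5 replicate 1 (0.0616) or WT gd19.5 replicate 3 (0.0606). With the 3 libraries left out, *Igfbp1* was at -0.63 and *Cfi* at 0.28. *C1qtnf3*, a paralog of the deleted gene, rose in KO from 5.25, 3.08 and 3.37 to 8.34, 13.7 and 11.4 CPM (1.53 ± 0.32, adjusted p = 0.0157). Its call was lost without KO gd16.5 replicate 2 (adjusted p = 0.0526) or KO gd19.5 replicate 2 (adjusted p = 0.0677), and with the yolk sac covariate (0.0987).

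**Figure D5:**
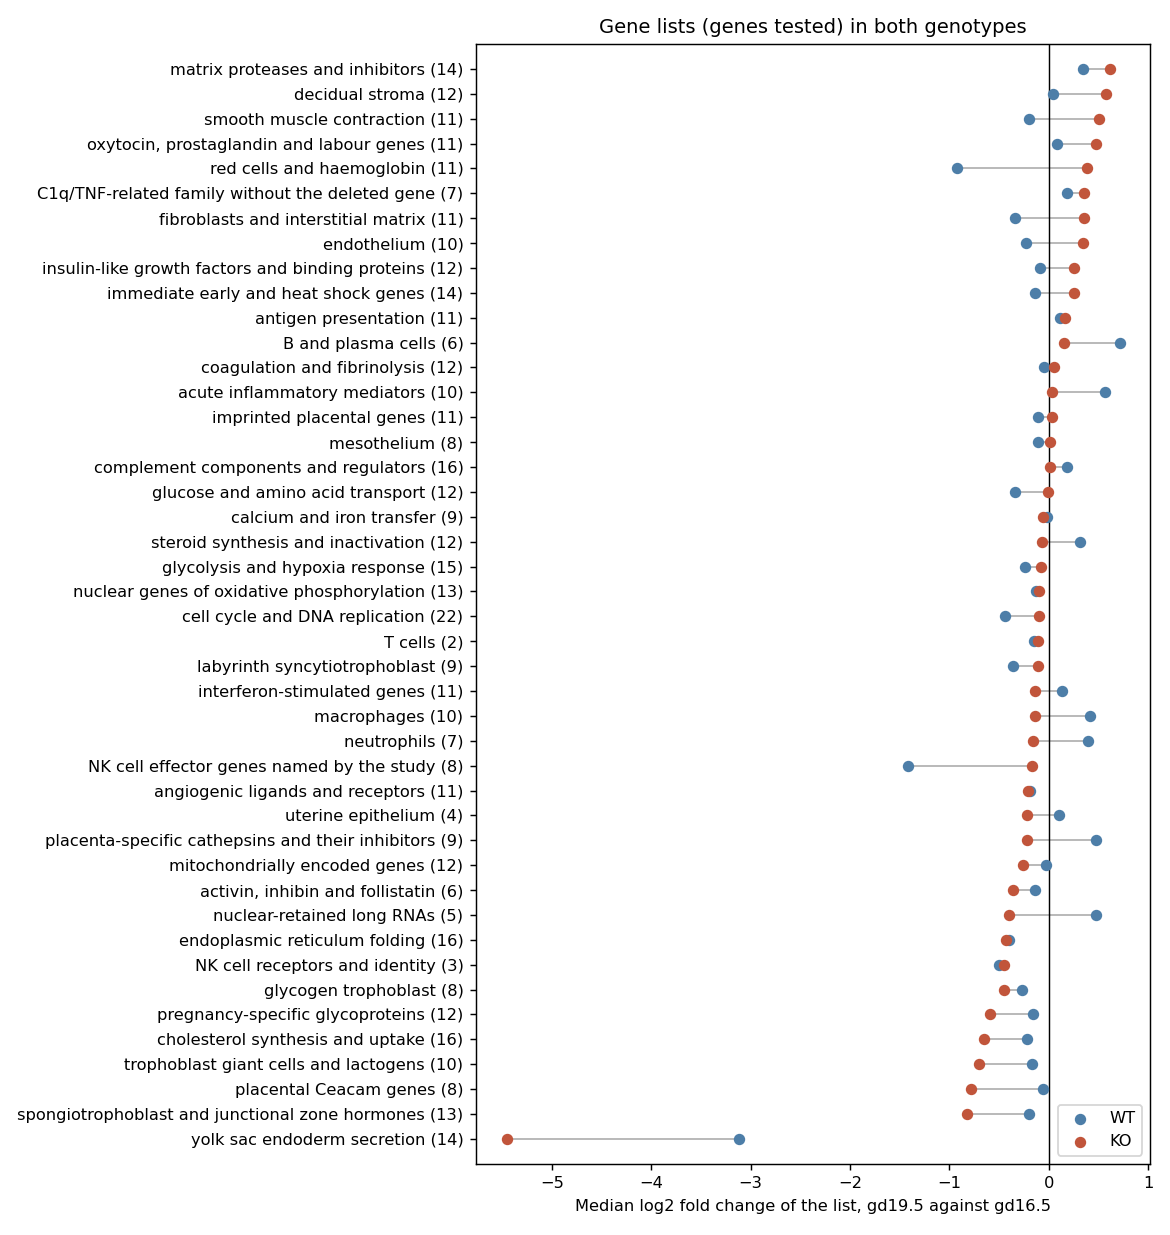
Median log2 fold change (gd19.5 over gd16.5) of 44 gene lists in KO and in WT, 1 pair of points per list, with the number of genes tested. Junctional zone, giant cell, Psg and Ceacam genes lie left of 0 in KO, muscle, decidual and protease genes lie right of 0, and the dNK effector list lies near 0 in KO (-0.17) and at -1.41 in WT.

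The test of the difference itself, the KO change minus the WT change, called 0 genes (0%) by edgeR at an adjusted p under 0.05, with a smallest adjusted p of 0.0837. At an unadjusted p under 0.05 there were 2821 genes. DESeq2 called 135 (0.773% of those it tested), of which 64 had a more positive and 71 a more negative change in KO, and all 135 had an unadjusted edgeR p under 0.05 with the same sign. Beside the DESeq2 calls already given, the 135 included *Serpinb9d*, *Clec1b*, *Corin*, *A930004J17Rik*, *Clmp* and *Kcnq1ot1*, all with an edgeR adjusted p above 0.05. Members of the gene lists that DESeq2 also called were *Csf3r*, *Sult1e1*, *Serping1*, *Jun*, *Nrp1* and *Ctla2b*. Voom called 1. The smallest edgeR p belonged to *A930004J17Rik*, with 6.13, 7.25 and 6.17 CPM at gd16.5 and 3.67, 3.98 and 3.62 CPM at gd19.5 in KO and 4.23, 3.72 and 3.05 CPM at gd16.5 and 6.26, 6.72 and 5.46 CPM at gd19.5 in WT. It was lower at gd19.5 in KO (-0.80 ± 0.14, adjusted p = 0.00697) and higher in WT (0.74 ± 0.14, adjusted p = 0.012), with no overlap of stages in either. *Clmp*, a cell adhesion molecule gene whose difference (0.72) was the only positive one among the 10 genes with the smallest p, had 39.99, 44.9 and 41.4 CPM at gd16.5 and 69.6, 58.8 and 67.8 CPM at gd19.5 in KO (0.64 ± 0.09, adjusted p = 0.00256), against 54.3, 61.3 and 67.3 CPM at gd16.5 and 60.9, 55.3 and 56.5 CPM at gd19.5 in WT (-0.08 ± 0.09, adjusted p = 0.609). *Kcnq1ot1*, an imprinted antisense RNA, had 25.9, 33.4 and 28.1 CPM at gd16.5 and 19, 20.8 and 17.5 CPM at gd19.5 in KO (-0.61 ± 0.14, adjusted p = 0.0187), against 24.6, 18 and 17.2 CPM at gd16.5 and 25.8, 27.2 and 30.3 CPM at gd19.5 in WT (0.48 ± 0.14, adjusted p = 0.055). The study's methods name stranded libraries and default settings for the counting, but no strand option. Reads of *Kcnq1ot1* and of its overlapping partner could therefore not be told apart here.

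*Kcnq1ot1* belongs to a list of 5 RNAs kept in the nucleus. This list was chosen with earlier results of these data known, so its counts are not independent evidence. Of the 5 RNAs, 4 had a difference with an unadjusted p under 0.05, against 15.7% of all genes. The difference passed adjustment by DESeq2 in 3 of the 5 (*Kcnq1ot1*, *Malat1* and *Neat1*), against 0.773% of all genes, and in none by edgeR. The medians were -0.40 in KO and 0.48 in WT. *Malat1* had 228, 338 and 307 CPM at gd16.5 and 194, 251 and 217 CPM at gd19.5 in KO (adjusted p = 0.109), against 284, 226 and 208 CPM at gd16.5 and 356, 384 and 385 CPM at gd19.5 in WT (0.65 ± 0.15, adjusted p = 0.0245). The KO stages overlapped, and the WT libraries of gd19.5 stood above all other libraries. The share of nuclear RNA or of unspliced reads was not measured here. Among genes called in KO whose WT change had the opposite sign, *Pcolce2*, an enhancer of procollagen processing, had 0.187, 0.205 and 0.259 CPM at gd16.5 and 0.564, 0.727 and 0.571 CPM at gd19.5 in KO (1.504 ± 0.36, adjusted p = 0.0259). In WT it went the other way, from 0.544, 0.496 and 0.729 to 0.111, 0.28 and 0.0797 CPM (-1.84 ± 0.39, adjusted p = 0.018), at levels below 1 CPM throughout. The difference of *Pcolce2* passed adjustment by DESeq2 (adjusted p = 0.0118) and not by edgeR. The KO call of *Pcolce2* was lost without KO gd16.5 replicate 1 or 2 or KO gd19.5 replicate 2 or 3 (adjusted p from 0.0535 to 0.106), without the 3 libraries rich in yolk sac transcripts (0.295) and with the covariate (0.118).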

How the data were processed

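Bulk RNA-seq of the MFI was analysed from a table of raw read counts per gene (55401 genes, 24 libraries). Per the submitters' processing notes, the authors trimmed reads with Trim Galore 0.6.4, aligned them to GRCm38 with STAR 2.7.3a and counted them with featureCounts of Subread 2.0.0, and the deposited counts were not normalized. The annotation release is not given in the sources used here. The study's methods name stranded libraries and default settings for the counting, but no strand option. In R 4.3.3, 12 libraries (WT and KO, gd16.5 and gd19.5) were fitted together with edgeR 4.0.16 (a mean per group, TMM factors, quasi-likelihood F test). Genes needed 10 counts in enough libraries and 15 in total, by edgeR's filter. Calls needed an adjusted p under 0.05 and a log2 fold change beyond 1, the study's limits. CPM used TMM-scaled library sizes. The KO libraries carry different replicate numbers in titles and descriptions, and the latter were used. The difference test needed the adjusted p alone.

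The gene lists and members were chosen with earlier results of these data known. Named genes were *C1qtnf6*, the 12 largest rises and falls among called genes with non-overlapping KO stages, at least 5 CPM and a named symbol, the 10 smallest p values of the difference, up to 6 called genes of opposite sign in WT, and up to 4 genes per list by size of change. Alternatives varied scaling, filter, libraries, tool (DESeq2 1.42.0, limma voom 3.58.1), a replicate block and covariates. Scripts were tested on simulated counts. Replicates of a group differed beyond sampling noise (chi-square per degree of freedom from 7.863 to 59.68).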

Additional observations from a re-analysis of the deposited data

How the results depend on the processing

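With all 12 libraries 478 genes were called in KO (152 higher, 326 lower), 360 in WT and none in the difference. Without an expression filter KO gave 856 calls (631 lower), WT 633 and the difference 561, and with 10 counts required in every library KO gave 301 (188 lower). With only the 6 KO libraries there were 254 KO calls (151 lower), and with voom 294 (189 lower) and 1 in the difference. DESeq2 called 135 in the difference. At an adjusted p under 0.1, 508 were lower in KO and 1 was called in the difference. Without the fold limit 1789 passed in KO (839 higher, 950 lower) and 1327 in WT. A replicate block gave 305 KO calls (199 lower), 221 in WT and 1 in the difference. Deviations of same-numbered libraries correlated by -0.049, 0.074 and -0.023 in KO. These values cannot decide whether the numbers mark a shared run or litter, which the labels do not name. Leaving out 1 library at a time gave 159 to 579 KO calls, 49 to 199 higher, 110 to 483 lower, 134 to 403 in WT and 0 to 4 in the difference.

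The following were chosen after seeing the data. Library sizes without scaling factors gave 275 higher calls, 46.5% of the KO calls, with the all-gene median at 0.13. Without the 3 libraries rich in yolk sac transcripts 201 were lower, *Cfi* was at 0.28, *Hsd3b1* at 0.36, *Fgb* at 0.85 and *Fgg* at 0.60. With the yolk sac covariate 200 were lower, WT gave 571 calls, *Fgb* was at 0.28 and *Fgg* at 0.0063. With Y-linked expression as a covariate 2 passed in the difference. Libraries number 3 per group, and an exact permutation test of 3 against 3 cannot go below p = 0.1.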

Other observations

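Several gene groups not described above gave no calls in KO. None of 13 oxidative phosphorylation genes was called (median -0.10), nor of 15 hypoxia and glycolysis genes (-0.073), 12 nutrient transporters (-0.0067), 22 proliferation genes (-0.099) or 11 imprinted genes (0.028). None of 11 erythroid genes passed in KO, where the median was 0.38 against -0.92 in WT. Of the 11, 4 had an unadjusted p under 0.05 in the difference (15.7% of all genes did). *Hba-a1*, an alpha-globin gene, had 1383, 534 and 902 CPM at gd16.5 and 1878, 637 and 1402 CPM at gd19.5 in KO (0.47 ± 0.40, adjusted p = 0.481), against 2009, 1319 and 889.7 CPM at gd16.5 and 726, 832 and 668 CPM at gd19.5 in WT (-0.92 ± 0.40, adjusted p = 0.177). Libraries of a stage differed widely in both genotypes.

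By chromosome, with all libraries, the share of tested genes that fell in KO was 3.37% on chromosome 13 (26 of 772) and 3.28% on chromosome 3 (29 of 885), against 1.82% of all genes. Chromosome 3 holds *Fgb*, *Fgg*, *Cfi* and *Hsd3b1*, which fell with all libraries. Their changes were 0.28 to 0.85 without the 3 libraries rich in yolk sac transcripts. The chromosome shares were not taken without those libraries. Chromosome 13 holds the prolactin family, the *Serpinb9* genes and the placental cathepsins. Whether reads were shared between these close copies was not tested.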
